A study of Homo sapiens and Mus musculus with 13 samples.

Results

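The expression of 4 stable knockdown lines of MDA-MB-231, an invasive triple-negative human breast cancer cell line, was compared by the TRIM11 guide RNA that each line carried. TRIM11-KD1 and DKD1 carried TRIM11 guide 1, and TRIM11-KD2 and DKD2 carried TRIM11 guide 2. The TRIM11-KD lines had no KDM5C guide, and both double knockdown (DKD) lines also carried KDM5C guide 2. The comparison was therefore made as 2 pairs, TRIM11-KD2 against TRIM11-KD1 and DKD2 against DKD1, which have no library in common. These are 4 of the 13 samples of the series, 7 of which are MDA-MB-231 lines. The other lines were a Control with a guide against GFP, and KDM5C-KD1 and KDM5C-KD2 with KDM5C guides 1 and 2 and no TRIM11 guide. All 7 lines expressed Cas9 and a guide from a lentivirus and had been selected with puromycin. Each line is 1 library, and whether a line is a clone or the DKD lines were made from the TRIM11-KD lines is not given in the sources used here. The guide thus cannot be told apart from the history of a line or from its library. Of 24523 gene symbols, 11726 had a mean of at least 1 FPKM (fragments per kilobase of transcript, scaled to the number of fragments in the library) over the 4 lines. Among these, 77 genes were at least 2-fold higher and 132 at least 2-fold lower with guide 2 in both pairs.

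TRIM11 is a ubiquitin E3 ligase of the tripartite motif family, which marks other proteins for degradation by the proteasome. KDM5C is a histone demethylase that takes methyl groups from lysine 4 of histone H3 and so acts on promoters and enhancers. Cas9 cuts the genome where its guide pairs with the DNA, and faulty repair of the cut disrupts the reading frame. A transcript with a disrupted frame may still be made at its former level, so the amount of mRNA is a weak check of such a knockdown. Guides to different sites of 1 gene are used side by side so that a change seen with both can be set apart from one seen with either alone.

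The expression of TRIM11 (ENSG00000154370, on the minus strand of chromosome 1 of hg19 from 228581374 to 228594536) was 12.6 FPKM in the Control. With guide 1 it was 13.4 in TRIM11-KD1 and 16.1 in DKD1. With guide 2 it was 10.6 in TRIM11-KD2 and 9.38 in DKD2. Both guide 2 lines were thus below the Control and both guide 1 lines above it, by 1.26-fold within the TRIM11-KD pair and 1.72-fold within the DKD pair. The mean was 14.8 ± 1.94 FPKM (SD, n = 2) with guide 1 and 10 ± 0.892 (SD, n = 2) with guide 2. In limma, a linear model across all genes on log2(FPKM + 1) with the KDM5C background as a block, the difference of guide 2 from guide 1 was -0.51 (standard error 0.14, adjusted p = 0.137 by Benjamini-Hochberg). KDM5C mRNA did not follow the TRIM11 guide: it was 29.8 and 28.4 FPKM in the TRIM11-KD pair, guide 1 first, and 18.8 and 22.7 in the DKD pair. The Control had 30.3 FPKM of KDM5C, so the DKD lines, with their KDM5C guide, were below the lines without one. Of the 7 genes in the list of TRIM11 and proteins linked to it, none was 2-fold in both pairs.

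From the steps between low FPKM values, the 4 lines had about 15300000 to 19800000 fragments each, and the 7 lines 12900000 to 19800000. The 4 lines expressed mesenchymal markers of MDA-MB-231, with VIM at 1056 to 1309 FPKM and AXL at 406 to 490.3. Of 9 luminal markers expected low in MDA-MB-231, ESR1 was at most 0.0234 and PGR was listed at 0 in each line. However, 5 of the 9 reached a mean of 1 FPKM. Among these, ERBB2 had 17.8 to 23.7 FPKM in the 4 lines, GATA3 5.81 to 8.92, ERBB3 3.66 to 7.87 and EPCAM up to 12.3. Of 7 leukocyte markers only CD14 and CD68 reached a mean of 1 FPKM, and none of 5 endothelial markers did. The summed leukocyte markers, led by CD68, had 89.4 and 88.1 FPKM in the guide 1 lines and 68.7 and 70.5 in the guide 2 lines. The summed level of 5 fibroblast markers was 6.95 and 7.77 FPKM in the guide 1 lines and 2.53 and 1.44 in the guide 2 lines, a difference carried by COL1A2, while DCN was listed at 0. The part of these markers in the results was not tested.

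In single pairs, 180 genes were at least 2-fold higher (1.54% of the genes tested) and 239 at least 2-fold lower (2.04%) in TRIM11-KD2 than in TRIM11-KD1. In the DKD pair, 257 genes (2.19%) were higher and 343 (2.93%) lower with guide 2. Of the genes higher in the TRIM11-KD pair, 42.8% were also higher in the DKD pair, which is 30% of the DKD pair's genes. Of the lower genes of the TRIM11-KD pair, 55.2% were also lower in the DKD pair, or 38.5% of that pair's genes. The 77 genes higher in both pairs are 0.657% of the genes tested and the 132 lower in both are 1.13%. Of the 11726 genes tested, 17 were 2-fold in opposite directions. At a fold of 1.5, 257 genes (2.19%) were higher and 380 (3.24%) lower in both pairs. Over all genes tested, 35.9% were higher and 33.9% lower with guide 2 in both pairs by any amount. The correlation of the log2 ratios of the pairs across genes was 0.37. With the ratios of the KDM5C-KD pair, which has no TRIM11 guide, it was 0.30 for the DKD pair and 0.10 for the TRIM11-KD pair, and genes are not independent replicates. Across the same genes, TRIM11-KD2 correlated most closely with DKD2 (Pearson r of log2(FPKM + 1) 0.982) and less with TRIM11-KD1 (0.973), although TRIM11-KD2 and DKD2 differ in a KDM5C guide. The guide 1 lines were not nearest to each other, since TRIM11-KD1 had 0.967 with DKD1, 0.973 with TRIM11-KD2 and 0.981 with the Control, and DKD1 had 0.981 with KDM5C-KD1.

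**Figure D1:**
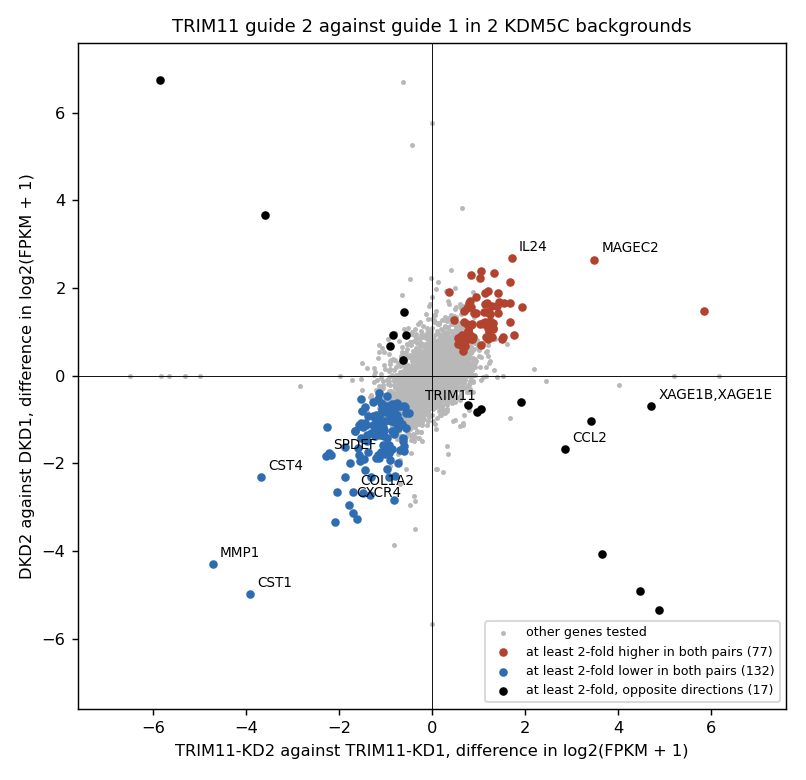
Difference in log2(FPKM + 1) of guide 2 from guide 1 for each of 11726 genes, in the TRIM11-KD pair (horizontal axis) and the DKD pair (vertical axis). The 77 red genes were at least 2-fold higher and the 132 blue genes at least 2-fold lower in both pairs, MMP1 and CST1 lie farthest toward the lower left, the 17 black genes differed in opposite directions, and 4 rows of small RNAs lie outside the axes.

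Which genes passed depends on both pairs reaching 2-fold, so the following values of named genes describe the rule's outcome. Just inside the rule stood PTGFRN, 4.93-fold higher in the TRIM11-KD pair and 2.01-fold in the DKD pair. WT1 was just outside it, at 1.98-fold and 1.97-fold. Among lower genes the row of ADIRF and AGAP11 was just inside, at 2.02-fold and 4.31-fold, and MECOM just outside, at 1.99-fold and 2.1-fold. After adjustment over 11726 genes, 1 gene (0.00853%) had a limma p under 0.05. This was MMP1, with an adjusted p of 0.0291, and the next smallest adjusted p was 0.0749. Before adjustment 2780 genes (23.7%) were under 0.05, of which 1498 were higher and 1282 lower with guide 2, and 1438 without the KDM5C block. The model had 1 residual degree of freedom. An exact permutation test of 2 lines against 2 cannot give a two-sided p under 0.333 and was therefore not used for single genes.

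MMP1 encodes interstitial collagenase, a secreted protease that cleaves fibrillar collagen. The gene (ENSG00000196611) lies on the minus strand of chromosome 11 of hg19 from 102660132 to 102668891. It had 14.9 FPKM in the Control, 43.2 in TRIM11-KD1 and 34.1 in DKD1, and fell to 0.690 in TRIM11-KD2 and 0.797 in DKD2. The mean was 38.7 ± 6.45 FPKM (SD, n = 2) with guide 1 and 0.744 ± 0.0752 (SD, n = 2) with guide 2. Both guide 2 lines were thus far below every guide 1 line and the Control, 62.6-fold in the TRIM11-KD pair and 42.8-fold in the DKD pair. The difference in limma was -4.50 on the log2(FPKM + 1) scale (standard error 0.14), which understates the ratio because the low values are near the pseudocount of 1. The FPKM of MMP1 in TRIM11-KD2 corresponds to about 20.9 fragments, and that in DKD2 to about 27.9. KDM5C-KD2, which has no TRIM11 guide, was lower still, with 0.0853 FPKM against 17.8 in KDM5C-KD1. The limma call for MMP1 was lost when the spread was not modelled as a trend on the level (adjusted p = 0.0912). WTAPP1, on the opposite strand, overlaps 8.14% of the exonic bases of MMP1.

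CST1 and CST4 encode type 2 cystatins, secreted inhibitors of cysteine proteases. Both lie on the minus strand of chromosome 20 of hg19, CST4 from 23666277 to 23669675 and CST1 from 23728199 to 23731905. CST1 had 1379.9 FPKM in the Control, 575 and 77.7 in the guide 1 lines TRIM11-KD1 and DKD1, and 37 and 1.49 in the guide 2 lines TRIM11-KD2 and DKD2. It was thus 15.5-fold lower with guide 2 in the TRIM11-KD pair and 52.1-fold lower in the DKD pair, with an adjusted limma p of 0.0749. All 6 knockdown lines were below the Control, guide 1 lines included, so the guide 2 lines were the lower of lines that were already low. CST4 had 142 and 10.2 FPKM in the TRIM11-KD pair and 22 and 3.60 in the DKD pair, guide 1 first. The transcripts of CST1 and CST4 have 13.9% of their stretches of 75 bases in common with other genes, each mostly with the other, so a part of their reads cannot be assigned to one of them. Of the 6 type 2 cystatins measured, all had a mean ratio below 1, beside 48.6% of all genes tested. These 2 were 2-fold lower in both pairs, beside 1.13% of all genes tested. The median difference of the list was -1.69 in the TRIM11-KD pair and -1.37 in the DKD pair. In the KDM5C-KD pair, which has no TRIM11 guide, it was -3.01. CST2 was 10.8-fold lower in the TRIM11-KD pair but 1.26-fold lower in the DKD pair, and CST6 and CST7 were higher in the first and lower in the second.

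**Figure D2:**
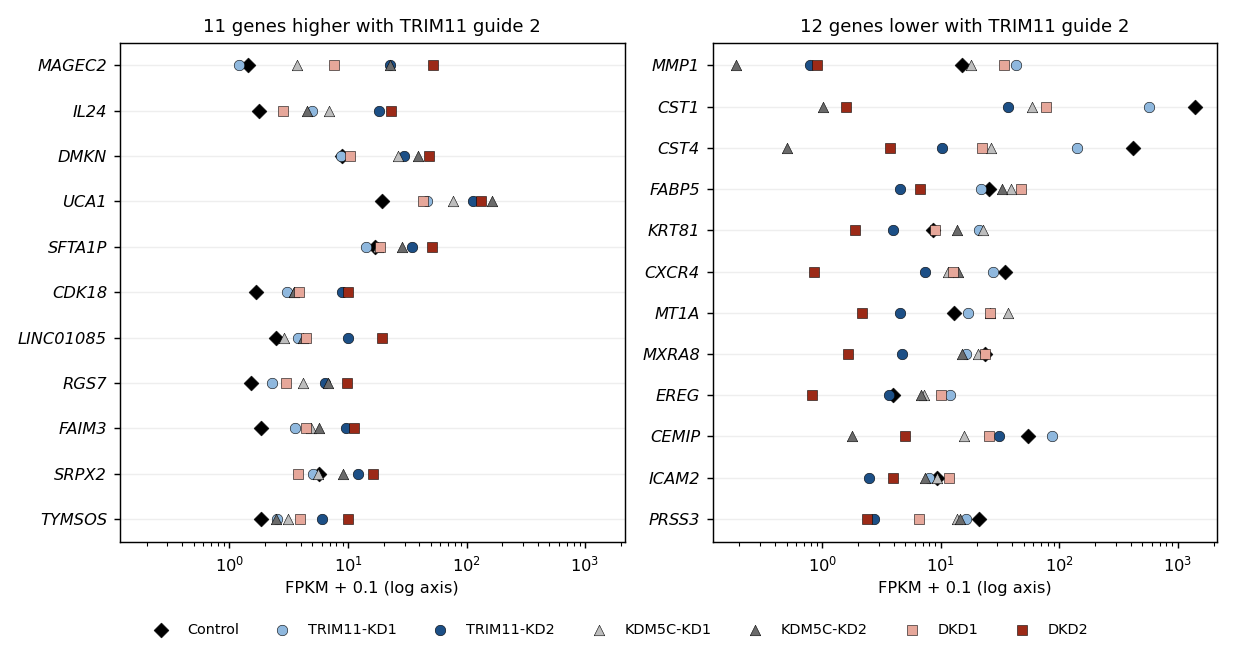
FPKM plus 0.1 (log axis) of 23 genes in each of the 7 lines, 1 point per library, for 11 genes named as higher (left) and 12 named as lower (right) with TRIM11 guide 2. In each gene the dark circle (TRIM11-KD2) and dark square (DKD2) stand apart from their pale guide 1 partners, while the grey triangles, from the 2 KDM5C-KD lines, are spread by as much in MMP1, CST1, CST4 and CEMIP and lie close together in FABP5, CXCR4, MXRA8 and PRSS3.

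With 3 genes, inflammatory cytokines and chemokines were the list with the most members 2-fold lower in both pairs. Cytokines and chemokines are secreted signals that recruit and activate leukocytes, and many are transcribed under the control of NF-kappaB and AP-1. Of 14 measured, IL1A, CXCL3 and CSF3 were 2-fold lower in both pairs and IL24 was higher. By any amount, 11 were lower in both pairs, beside 33.9% of all genes tested. The median difference of the list was -0.42 in the TRIM11-KD pair and -1.69 in the DKD pair, beside 0.001 and 0.012 over all genes tested. In the KDM5C-KD pair, which has no TRIM11 guide, it was -0.81, beside 0.008. IL1A, the cytokine interleukin 1 alpha, had 2.14 and 0.808 FPKM in the TRIM11-KD pair, guide 1 first, and 5.60 and 0.349 in the DKD pair. CXCL3, a chemokine for neutrophils, had 3.82 and 1.89 FPKM in the TRIM11-KD pair and 7.38 and 1.10 in the DKD pair. CSF3, the granulocyte growth factor, had 2.07 and 0.922 FPKM in the TRIM11-KD pair and 3.46 and 0.381 in the DKD pair. The guide 1 lines were the higher ones in every case, but the gap differed in size between the pairs. The Control had 1.07 FPKM of IL1A and 1.56 of CXCL3, nearer to the guide 2 lines and below both guide 1 lines. It had 2.45 FPKM of CSF3, nearer to the guide 1 lines. DKD1 had the highest level of the 7 lines in 10 of the 14 genes, for example CXCL8 with 110.1 FPKM against 32.8 in the Control and 14.4 in DKD2. In the TRIM11-KD pair CXCL8 had 54.4 and 42.0 FPKM, a difference of 1.30-fold. IL6 differed by 1.24-fold and 1.40-fold.

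Among 9 feedback genes of NF-kappaB, BIRC3 was 2-fold lower in both pairs and 7 were lower in both by any amount. Over all genes tested these shares were 1.13% and 33.9%. BIRC3, an inhibitor of apoptosis induced by NF-kappaB, had 21.3 and 7.92 FPKM in the TRIM11-KD pair and 21.2 and 3.50 in the DKD pair. NFKBIA, which encodes the inhibitor of NF-kappaB, had 84.5 and 62.3 FPKM in the TRIM11-KD pair and 105 and 47.5 in the DKD pair. TNFAIP2 was nearly level, at 1.07-fold in each pair. The median of this list was -0.39 in the TRIM11-KD pair, -0.58 in the DKD pair and -0.48 in the KDM5C-KD pair. Of the 34 interferon-stimulated genes measured, only USP18 was 2-fold in both pairs, and it was higher. Its level was low, at about 24.7 and 44.5 fragments in the TRIM11-KD pair, guide 1 first, and 23.8 and 64.8 in the DKD pair. Of the 75-base stretches of USP18, 21.1% also occur in other genes, mostly USP41. The median of the interferon list was -0.13 in the TRIM11-KD pair and 0.49 in the DKD pair, so the pairs had opposite signs.

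The promoters of CXCL3, BIRC3 and IL1A are printed because these members were lower together and because their promoters hold letters of the factors named above. They are RefSeq sequences of GRCh38.p14, a later build than the hg19 of the files, from 250 bases before to 50 bases after the start of the gene, read 5′ to 3′ along the gene. Capitals mark the kappa-B consensus, the motif of NF-kappaB, in CXCL3 (chromosome 4, from 74038640 to 74038939, minus strand) and BIRC3 (chromosome 11, from 102317234 to 102317533, plus strand), and TGANTCA, the motif of AP-1, in IL1A (chromosome 2, from 112784351 to 112784650, minus strand).
CXCL3: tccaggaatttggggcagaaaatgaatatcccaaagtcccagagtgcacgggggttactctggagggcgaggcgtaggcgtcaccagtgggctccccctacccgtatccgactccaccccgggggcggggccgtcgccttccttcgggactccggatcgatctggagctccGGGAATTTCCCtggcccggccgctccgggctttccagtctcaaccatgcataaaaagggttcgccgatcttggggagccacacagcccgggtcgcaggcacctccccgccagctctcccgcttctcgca
BIRC3: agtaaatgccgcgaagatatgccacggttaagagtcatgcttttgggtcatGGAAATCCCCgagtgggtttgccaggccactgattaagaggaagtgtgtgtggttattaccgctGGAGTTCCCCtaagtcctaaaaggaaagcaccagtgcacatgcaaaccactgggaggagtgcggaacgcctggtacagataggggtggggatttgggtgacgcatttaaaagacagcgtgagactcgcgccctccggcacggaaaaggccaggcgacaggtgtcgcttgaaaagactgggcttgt
IL1A: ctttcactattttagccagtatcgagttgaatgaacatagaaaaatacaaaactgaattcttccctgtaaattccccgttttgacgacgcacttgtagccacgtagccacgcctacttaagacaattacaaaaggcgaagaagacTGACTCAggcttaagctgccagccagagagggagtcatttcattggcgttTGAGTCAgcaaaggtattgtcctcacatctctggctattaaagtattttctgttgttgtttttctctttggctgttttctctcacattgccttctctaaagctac
In CXCL3 a pair of overlapping kappa-B matches on opposite strands begins 79 and 78 bases before the start. In BIRC3 the matches begin 199 and 135 bases before it. In IL1A the AP-1 letters begin 105 and 55 bases before it. Both strands were searched, and the motifs were chosen after the values were seen. The AP-1 letters also occur in the promoters of CA9, DMKN, RGS7 and SRPX2, which were higher with guide 2, and of PRSS3, which was lower. Those of CA9 and RGS7 hold the kappa-B consensus too. A promoter was at hand for 82 of the 132 lower genes, 46 of the 77 higher genes and 8540 of the 11726 genes tested. The kappa-B consensus occurred in 13.4% of the lower, 21.7% of the higher and 12.9% of the tested promoters, and in 10.8% of all 27305 promoters. The AP-1 letters occurred in 11% of the lower, 15.2% of the higher and 4.86% of the tested promoters, and in 7.90% of all. Such matches are descriptions of letters and not sites of binding.

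The lower genes also held proteins of the cell surface and of the extracellular matrix. CXCR4 encodes a chemokine receptor that guides migrating cells. It had 34.6 FPKM in the Control, 27.2 in TRIM11-KD1 and 12.5 in DKD1, and 7.21 in TRIM11-KD2 and 0.751 in DKD2, and thus was lower in both guide 2 lines than in any other line. ITGA2, the collagen-binding integrin alpha 2 chain, differed by 2.50-fold and 2.60-fold. Among 35 positive regulators of cell migration, CXCR4 and ITGA2 were the genes 2-fold lower in both pairs and none was 2-fold higher. Over all genes tested, 1.13% were 2-fold lower and 0.657% 2-fold higher in both pairs. The median of that list was -0.15 in each pair. L1CAM went the other way, with 41.8 and 76.0 FPKM in the TRIM11-KD pair and 50.4 and 119 in the DKD pair. MCAM, a cell adhesion molecule, was 1.18-fold and 1.73-fold lower with guide 2.

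COL1A2, a chain of type I collagen, was 6.50-fold lower in the TRIM11-KD pair and 53.9-fold lower in the DKD pair. It had 0.469 FPKM in the Control, below both guide 1 lines, at 4.45 and 6.02, and near the guide 2 lines, at 0.685 and 0.112. COL6A3, a chain of type VI collagen, was 5.52-fold and 7.24-fold lower. Of 13 collagens measured, 7 were lower in both pairs by any amount and these 2 by at least 2-fold, and COL8A1 was the one that was 1.5-fold higher in both. ADAMTS1, a protease of proteoglycans, had 9.02 and 2.39 FPKM in the TRIM11-KD pair and 2.04 and 0.369 in the DKD pair. With MMP1 it was 1 of 2 genes at least 2-fold lower in both pairs among 13 matrix proteases and inhibitors, of which 9 were lower by any amount. Over all genes tested, 33.9% were lower in both pairs by any amount and 1.13% by at least 2-fold. The median of the protease list was -0.52 and -0.57, and -0.93 in the KDM5C-KD pair without a TRIM11 guide. The collagens had medians of -0.22 and -0.25, and -0.53 in the KDM5C-KD pair. COL1A2 had 2.50 FPKM in KDM5C-KD1 and 0.181 in KDM5C-KD2. LAMA4, a laminin chain, was 3.34-fold and 2.20-fold lower, and CEMIP, which takes part in the breakdown of hyaluronan, 2.76-fold and 5.13-fold. MXRA8, a surface protein related to matrix remodelling, was 3.54-fold and 15.3-fold lower, and ICAM2, an adhesion molecule of the immunoglobulin family, 3.29-fold and 2.98-fold. Of the 75-base stretches of ICAM2, 40.0% also occur in PRR29, which lies on the other strand.

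FABP5, a carrier of fatty acids, had 21.6 and 4.44 FPKM in the TRIM11-KD pair and 47.0 and 6.58 in the DKD pair. EREG, a ligand of the EGF receptor, was 3.30-fold and 13.9-fold lower, and MT1A, a metallothionein that binds zinc and copper, 3.76-fold and 12.5-fold. The fixed list of metallothioneins did not include MT1A. In its 4 measured members the median of the mean ratios was 0.14, but -0.12 in the DKD pair alone, and none was 2-fold in both pairs. SPDEF, an epithelial transcription factor, had 30.3 FPKM in the Control, 7.20 and 3.8 in the guide 1 lines and 0.675 and 0.339 in the guide 2 lines. KRT81, a keratin of hair, was 5.46-fold and 4.96-fold lower, but 36.6% of its 75-base stretches also occur in other genes, mostly KRT86, which was lower as well (3.66-fold and 4.21-fold). PRSS3, a trypsinogen, was 6.18-fold and 2.78-fold lower. Of FABP5, 28.2% of the stretches occur elsewhere, mostly in pseudogenes such as FABP5P7.

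Among the higher genes, MAGEC2 stood apart by most on the log2(FPKM + 1) scale, taking the smaller difference of the pairs. It is a cancer-testis antigen, normally silent outside the germ line, on the minus strand of the X chromosome of hg19 from 141290128 to 141293076. MAGEC2 had 1.33 FPKM in the Control, 1.11 and 7.51 in the guide 1 lines TRIM11-KD1 and DKD1, and 22.6 and 52.4 in the guide 2 lines. It was thus 20.4-fold higher in the TRIM11-KD pair and 6.98-fold in the DKD pair, with 4.31 ± 4.52 FPKM (SD, n = 2) with guide 1, 37.5 ± 21.0 (SD, n = 2) with guide 2 and an adjusted limma p of 0.0749. KDM5C-KD2, with no TRIM11 guide, had 22.7 FPKM, as much as TRIM11-KD2. Of the 6 cancer-testis antigens measured, it was the one that was 2-fold in both pairs, and MAGEC1 was 2.63-fold and 1.95-fold higher while MAGEA3 was 1.96-fold and 6.41-fold lower.

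IL24, a cytokine of the IL10 family, had 1.66 FPKM in the Control, 4.90 and 2.75 in the guide 1 lines TRIM11-KD1 and DKD1, and 18.2 and 23.1 in the guide 2 lines. Both guide 2 lines were above each of the other 5 lines. FAIM3, now called FCMR and the receptor for the Fc part of IgM, was 2.71-fold and 2.58-fold higher. IL24 and FAIM3 overlap on opposite strands of chromosome 1, IL24 from 207070788 to 207077484 and FAIM3 from 207076662 to 207096592, and 41.6% of the exonic bases of IL24 lie in exons of FAIM3. The libraries did not keep the strand, so reads of this stretch cannot be told apart and the 2 genes are not separate evidence. SRPX2, a secreted protein of the sushi repeat family, was 2.43-fold and 4.4-fold higher, and 52.0% of its exonic bases overlap exons of SYTL4 on the other strand.

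UCA1, a long noncoding RNA first described in bladder carcinoma, was the most abundant of the named higher genes, with 46.3 and 114 FPKM in the TRIM11-KD pair and 43.0 and 132 in the DKD pair. The Control had 19.1 FPKM, below all 4 lines, and KDM5C-KD2 had 163. Of the exonic bases of UCA1, 26.1% overlap LINC01764 on the other strand. SFTA1P, another noncoding RNA, was 2.47-fold and 2.73-fold higher, LINC01085 2.68-fold and 4.50-fold, and TYMSOS, transcribed next to TYMS, 2.45-fold and 2.58-fold. DMKN, a secreted protein of the epidermis, had 8.58 and 29.8 FPKM in the TRIM11-KD pair and 10.2 and 48.3 in the DKD pair. MUC1, a membrane mucin, was 2.19-fold and 5.60-fold higher. RGS7, a regulator of G protein signalling, was 2.89-fold and 3.36-fold higher. CDK18, a kinase of the cyclin-dependent family, had 2.98 and 8.78 FPKM in the TRIM11-KD pair and 3.77 and 10 in the DKD pair, close to equal in the pairs. Lower in level but 2-fold in both pairs were CA9, a carbonic anhydrase induced by hypoxia (2.74-fold and 4.02-fold), HEYL, a Notch target (3.93-fold and 4.03-fold), and PSG2, a pregnancy-specific glycoprotein (2.63-fold and 9.23-fold). CA9, HEYL and PSG2 were the only members of their lists of 15, 16 and 7 measured genes to pass in both pairs. For PSG2 17.4% of the 75-base stretches also occur in other genes, mostly PSG11, and 35.7% of the exonic bases of CA9 overlap ARHGEF39 on the other strand.

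Of the 563 list genes measured, 22 were 2-fold in both pairs, 7 higher and 15 lower, beside 209 (1.78%) of the 11726 genes tested. The lists were chosen with earlier results of these data known. Some lists without such members still differed by small amounts in the same direction in both pairs. Among 29 genes of the cell cycle and mitosis, 28 were higher with guide 2 in both pairs, beside 35.9% of all genes, with medians of 0.23 and 0.26. The minichromosome maintenance genes of the replication licence were among them, with MCM6 at 20.2 and 33.0 FPKM in the TRIM11-KD pair and 40.0 and 56.3 in the DKD pair. RRM2, a subunit of ribonucleotide reductase, was 1.66-fold and 1.86-fold higher, and CCNE1, cyclin E1, 2.24-fold and 1.61-fold. CCNA2 was the exception, lower by 1.03-fold and 1.15-fold. Of 28 cytosolic ribosomal proteins 25 were higher in both pairs, with medians of 0.21 and 0.20, and of 28 nuclear genes of oxidative phosphorylation 22 were, with medians of 0.15 and 0.11. In the KDM5C-KD pair, in which no line has a TRIM11 guide, the medians of these 3 lists were 0.30, 0.27 and 0.07. The list members are no replicates of a line, and no test was made over a list. Of 23 TRIM ligases, 18 histone lysine demethylases and 27 proteasome subunits, none was 2-fold in both pairs. No row for the mitochondrially encoded genes was at hand.

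**Figure D3:**
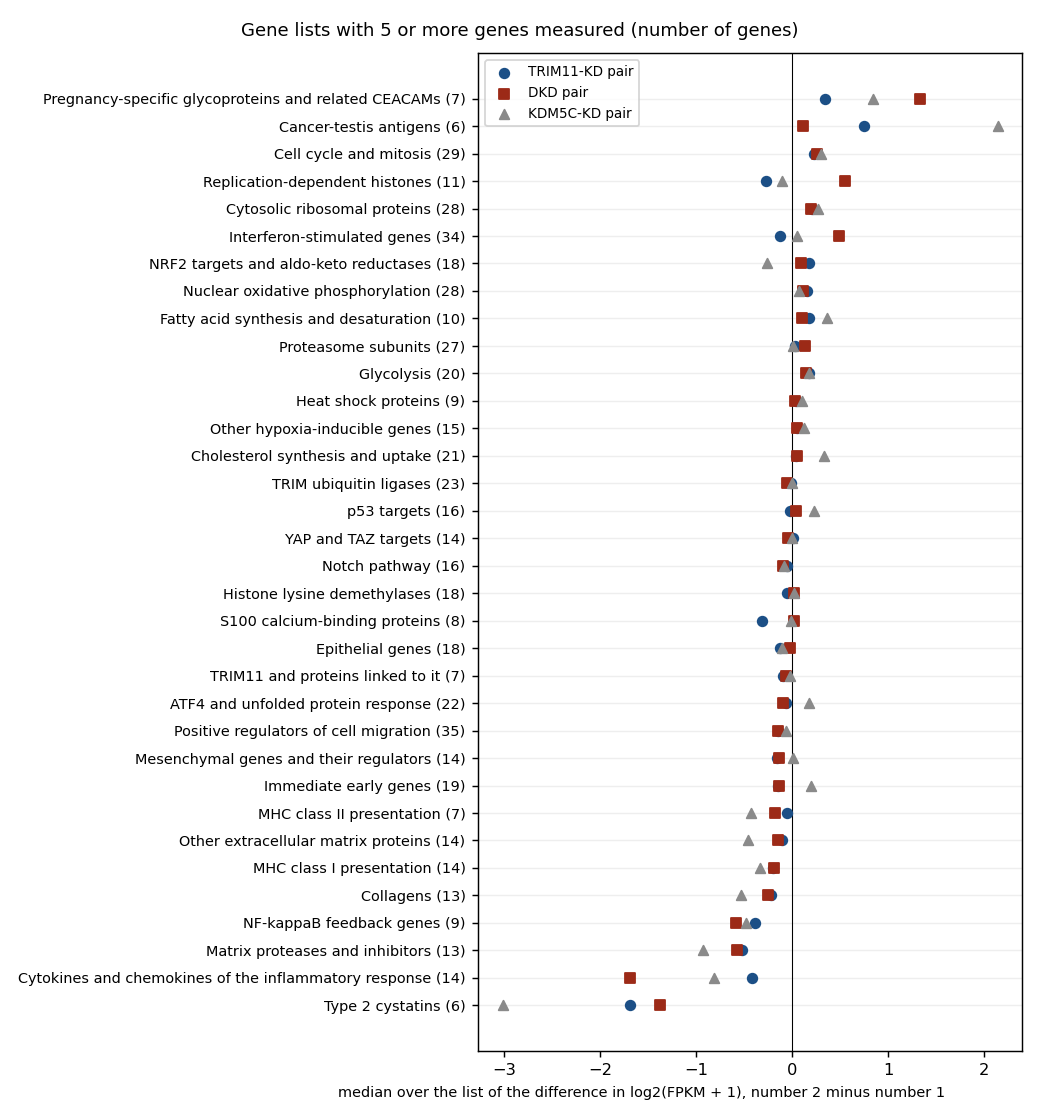
Median over each gene list of the difference in log2(FPKM + 1), number 2 minus number 1, in the TRIM11-KD pair (circles), the DKD pair (squares) and the KDM5C-KD pair without a TRIM11 guide (triangles), for lists with 5 or more genes measured. Type 2 cystatins lie farthest to the left in the TRIM11-KD pair (-1.69) and cytokines and chemokines in the DKD pair (-1.69), and for interferon-stimulated genes and replication-dependent histones the circles and squares lie on opposite sides of 0.

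KDM5C-KD2 and KDM5C-KD1 have no TRIM11 guide and differ in their KDM5C guide, and neither was used to choose the genes. In that pair 166 of the 11726 genes (1.42%) were at least 2-fold higher and 447 (3.81%) at least 2-fold lower in line 2. Of the 77 genes higher with TRIM11 guide 2, 16 (20.8%) were also 2-fold higher in KDM5C-KD2, 11 were 2-fold lower and 50 were within 2-fold. Of the 132 lower genes, 52 (39.4%) were also 2-fold lower in KDM5C-KD2, 5 were higher and 75 were within 2-fold. The median difference in the KDM5C-KD pair was 0.25 over the higher genes and -0.41 over the lower genes, beside 0.008 over all genes tested. MMP1, CST1 and CST4 were 208-fold, 64.6-fold and 65.0-fold lower in KDM5C-KD2 than in KDM5C-KD1, and BIRC3 was 7.99-fold lower. By contrast, CXCR4 had 11.3 and 13.9 FPKM in the KDM5C-KD pair, PRSS3 13.6 and 14.5, and FABP5 38.8 and 32.4. CDK18 had 3.41 and 3.39 FPKM there, and IL24 had 6.77 and 4.45. These genes were thus apart by at most 1.52-fold in the knockdown lines without a TRIM11 guide.

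**Figure D4:**
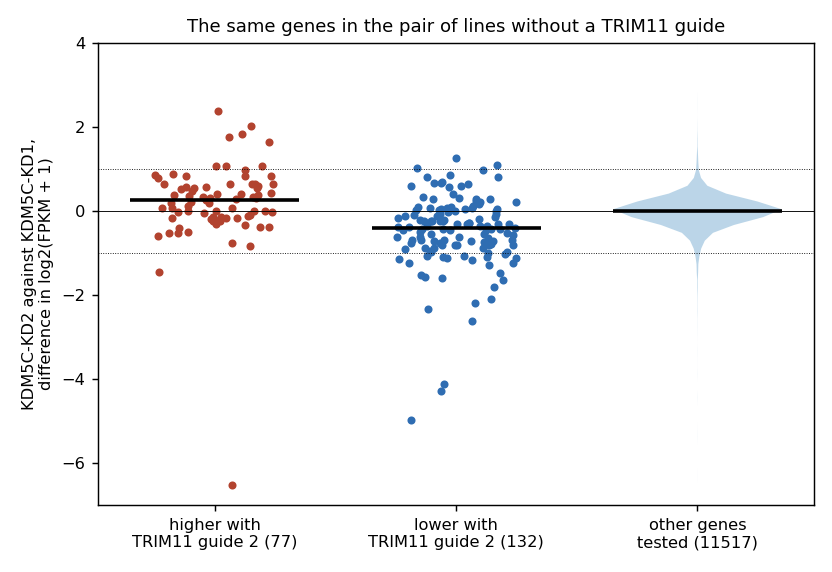
Difference in log2(FPKM + 1) of KDM5C-KD2 from KDM5C-KD1, lines without a TRIM11 guide, for the 77 higher genes, the 132 lower genes and the other 11517 genes tested. Points are genes, thick bars are medians (0.25 and -0.41 in the first groups), dotted lines mark 2-fold at high levels, and 3 of the other genes lie outside the axis.

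Whether the difference of number 2 from number 1 was unlike in the TRIM11 lines and the KDM5C-KD lines was tested with limma over the 6 knockdown lines. After adjustment 1 gene (0.00853%) had a p under 0.05, AKR1C3, an aldo-keto reductase of steroid metabolism. It was level in the TRIM11 pairs, with 78.9 and 89.4 FPKM in the TRIM11-KD pair and 77.6 and 85.6 in the DKD pair, and the KDM5C-KD pair had 29.2 and 0.435. The difference between the contrasts was -4.56 in limma (adjusted p = 0.0244). Of the genes 2-fold in both TRIM11 pairs, none passed that test, and the smallest adjusted p among them was 0.232. In limma the difference was 2.64 for CXCR4 (adjusted p = 0.248) and -2.70 for IL24 (adjusted p = 0.232). The model had 1 library per KDM5C-KD line and 1 residual degree of freedom, so a p that misses the threshold does not show that these genes behaved alike in the TRIM11 pairs and the KDM5C-KD pair.

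In the Control, 73 of the 77 higher genes and 112 of the 132 lower genes were nearer to the guide 1 lines than to the guide 2 lines, on the log2(FPKM + 1) scale. Over all genes tested this share was 63.2%. The Control was below all 4 lines in 37 of the higher genes, as in UCA1, and above all 4 in 61 of the lower genes, as in CST1. In each pair of these the guide 1 line thus lay between the Control and the guide 2 line. How often the Control lies outside all 4 lines was not counted over all genes tested, so these counts have no share beside them. DMKN and MXRA8 are examples of genes in which guide 1 lines and the Control lay close together, with 8.85 FPKM of DMKN and 23.3 of MXRA8 in the Control. The KDM5C-KD lines, without a TRIM11 guide, were not all near the Control. DMKN had about 873 fragments in KDM5C-KD1 and 969 in KDM5C-KD2, beside 301 in the Control and 879 in TRIM11-KD2. MXRA8 had about 955 and 533 in the KDM5C-KD pair, beside 1124 in the Control and 192 in TRIM11-KD2.

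Of the genes called, 200 had a position in hg19. Neighbours within 100000 bases were found 9 times, and each time both genes differed in the same direction. Besides CST4 and CST1, IL24 and FAIM3, and KRT86 and KRT81, they were PADI3 and PADI4, GALNT14 and EHD3, and PAPPA and its antisense PAPPA-AS1 among the higher genes, and LINC00261 and FOXA2, RNF128 and MORC4, and MORC4 and CLDN2 among the lower. Of these, 4 overlap in the genome, and without strand their reads cannot be fully separated. How often neighbours differ in the same direction was not counted over all genes tested, so the 9 cases have no share beside them. Protein-coding genes were 81.8% of the higher and 90.9% of the lower genes, beside 91.7% of all genes tested, and long noncoding RNAs were 7.79% and 3.03%, beside 2.42%.

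Some chromosomes as a whole were shifted by a small amount with guide 2. Over the 385 genes tested on chromosome 8 the median difference was -0.20 in the TRIM11-KD pair and -0.14 in the DKD pair, and 8 genes of chromosome 8 were 2-fold lower and none 2-fold higher in both pairs. Against the Control, the median of chromosome 8 was -0.18 in TRIM11-KD2 and -0.20 in DKD2, and between -0.05 and -0.01 in the other 4 knockdown lines. Over the 473 genes on chromosome 9 the medians were 0.15 and 0.11, and against the Control 0.21 in TRIM11-KD2, 0.22 in DKD2 and 0.03 to 0.11 in the others. Both guide 2 lines were thus alike in these chromosomes and apart from both guide 1 lines. Chromosome 18 was also lower in both pairs, by -0.12 and -0.29, but likewise in the KDM5C-KD pair (-0.25). Chromosome 4 had medians of -0.12 and -0.21, and -0.15 in the KDM5C-KD pair, and 12 of its 407 genes tested were 2-fold lower and 2 higher in both pairs. Of 1191 genes tested on chromosome 1, 19 were 2-fold higher and 9 lower in both pairs, with medians of 0.06 and 0.11. Over all chromosomes 0.657% of genes were 2-fold higher and 1.13% lower.

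**Figure D5:**
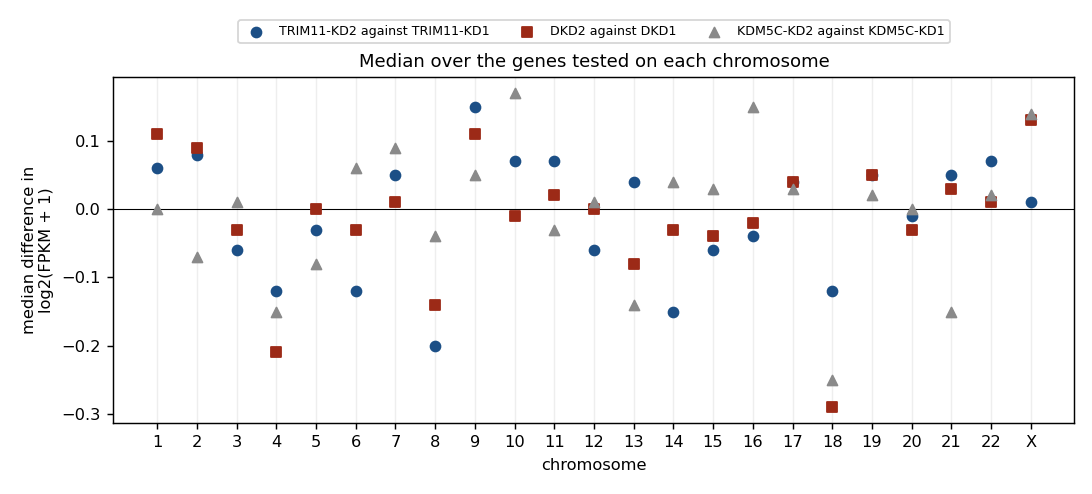
Median over the genes tested on each chromosome of the difference in log2(FPKM + 1), number 2 minus number 1, in the TRIM11-KD pair (circles), the DKD pair (squares) and the KDM5C-KD pair (triangles). On chromosome 8 the circle and square lie at -0.20 and -0.14 and the triangle at -0.04, and on chromosome 9 they lie at 0.15, 0.11 and 0.05.

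The 17 genes that were 2-fold in opposite directions comprised 10 that were higher in the TRIM11-KD pair and lower in the DKD pair, and 7 the other way. CCL2, a chemokine for monocytes, had 2.32 FPKM in TRIM11-KD1 and 23.1 in TRIM11-KD2, but 112 in DKD1 and 34.2 in DKD2. The Control had 2.82 FPKM, near TRIM11-KD1 and below the other 3 lines. The row of XAGE1B and XAGE1E, cancer-testis antigens on the X chromosome, had 25.1 FPKM in TRIM11-KD2, was listed at 0 in TRIM11-KD1 and DKD2 and had 0.628 in DKD1. Every 75-base stretch of XAGE1B occurs in other copies of the gene, mostly XAGE1A, so the level of a single copy is uncertain.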

How the data were processed

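Poly(A) RNA of 7 MDA-MB-231 lines, 1 library each, was sequenced as read pairs of 150 nt without strand. According to the study's methods, the authors trimmed reads with Cutadapt, aligned them to hg19 with HISAT2 version 2.1.0 (submitters' processing notes) and estimated FPKM per gene with Cufflinks, and these deposited FPKM values were used as they stand. The Cufflinks version and the annotation are not given in the sources used here. Mouse tumour samples were not used. The depth behind the FPKM values was estimated from the steps between low values and is approximate.

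Of 26006 rows, 27 whose symbols had become dates were left out, and of rows sharing a symbol the one with the highest mean was kept. Genes with a mean of at least 1 FPKM over the 4 lines (11726, of which 361 join several symbols and 108 are small RNAs) were tested. Differences were taken on log2(FPKM + 1) with limma 3.58.1 in R 4.3.3, with the KDM5C background as a block, a trend on the mean level and Benjamini-Hochberg adjustment, after a test on simulated data. The 2 lines of a background share it by design, which is the pairing used. The difference from the KDM5C-KD pair was tested over 6 knockdown lines. Tables and figures were made with Python 3.11.15, pandas 2.3.3 and matplotlib 3.10.9. Each combination of guides is a single library. In the main model the p-values thus rest on how far the difference of guide 2 from guide 1 disagreed between the pairs. This disagreement was moderated across genes and may be technical. The model of 6 knockdown lines rests on the same disagreement, to which the KDM5C-KD lines add nothing.

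Named genes were TRIM11 and KDM5C, the 12 per direction with a mean of at least 5 FPKM and the largest smaller log2 ratio of the pairs (pseudocount 0.1; no ribosomal protein genes or small RNAs), list members 2-fold in both pairs, and up to 3 per direction with opposite directions. Of the named higher genes, 1 is not reported here. Other genes were named from the lists after their values were seen. The members and lists were chosen with earlier results of these data known. Alternatives changed the pseudocount, filter, scaling, fold, block and trend, and left out lines. Positions are those of hg19 (GENCODE release 44 mapped to it).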

Additional observations from a re-analysis of the deposited data

Results flagged for a closer look

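CCL2 was flagged because its log2(FPKM + 1) difference of guide 2 from guide 1 was 2.86 in the TRIM11-KD pair and -1.68 in the DKD pair, so that the pairs differed in direction. The row of XAGE1B and XAGE1E was flagged for the same reason, with 4.71 in the TRIM11-KD pair and -0.70 in the DKD pair. With 1 library per line, the difference between the pairs was not tested for either.

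AKR1C3 was flagged because its difference of number 2 from number 1 in the KDM5C-KD pair was -4.56 apart from that in the TRIM11 pairs, by limma over 6 knockdown lines with an adjusted p of 0.0244. KDM5C-KD2 was the 1 line of the 7 with under 1 FPKM of AKR1C3 (0.435), so this rests on 1 library.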

How the results depend on the processing

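The counts of genes 2-fold in both pairs depended on the pseudocount, the filter and the fold. The 77 higher genes became 35 with a pseudocount of 1, 118 with a mean of at least 0.5 FPKM, 24 with at least 5, 452 with no filter, 257 at a fold of 1.5, 12 at a fold of 4, and 159 by the mean ratio of the pairs. The 132 lower genes became 63 with a pseudocount of 1, 34 with a mean of at least 5 FPKM, 712 with no filter, 380 at a fold of 1.5, 26 at a fold of 4, and 219 by the mean ratio. Leaving out either line of a pair leaves the other pair alone, which gave 180 to 257 higher and 239 to 343 lower genes. Scaling by median ratios kept all 77 and all 132 genes, and scaling to equal totals kept 72 of the 77 and all 132, among 143. Leaving out small RNAs or joined rows was chosen after seeing the data and moved neither count by over 1.5 times.

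By limma, 1 gene passed adjustment. None did without the trend (0, with 2523 at an unadjusted p under 0.05), and 3 to 98 did when 1 line was left out, the lone line of a guide being assumed to vary like the others. The most were called without TRIM11-KD1 (98) and without DKD1 (79), and 3 without TRIM11-KD2 and 5 without DKD2. Without the replicate block, the count at an unadjusted p under 0.05 was 1438 in place of 2780, and with 1 line left out 473 to 2065. The block left the count of adjusted calls at 1. The difference from the KDM5C-KD pair had 0 genes past adjustment without the trend.

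Of the 209 genes 2-fold in both pairs, 68 (32.5%) were so in the KDM5C-KD pair, and 25 of 98 (25.5%) with a pseudocount of 1, 223 of 637 (35%) at a fold of 1.5 and 13 of 58 (22.4%) with a mean of at least 5 FPKM. Those nearer to guide 1 in the Control were 185 (88.5%), and 88 (89.8%), 548 (86%) and 54 (93.1%) under the same settings. The median of the metallothioneins changed sign, to -0.12 with the DKD pair alone, and those of interferon-stimulated genes (-0.13) and replication-dependent histones (-0.27) did so with the TRIM11-KD pair alone. The medians of other lists within 0.08 of 0 also changed sign under some setting (YAP and TAZ targets, cholesterol, S100, TRIM ligases and histone demethylases). Those of p53 targets (-0.00, and 0.04 with the DKD pair alone) and MDA-MB-231 markers (0.06 and -0.00) did so as well. Of the named genes, CCL2 (-1.68) and the row of XAGE1B and XAGE1E (-0.70) changed direction with the DKD pair alone, and KDM5C (-0.07) with the TRIM11-KD pair alone. Single libraries and an approximate depth limit the precision of levels near 1 FPKM.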

Other observations

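The row of MIR137 and its host gene MIR137HG had 955 FPKM in TRIM11-KD2 and 0.528 to 1.09 in the other 6 lines. It is 1 of the 77 higher genes, at 912-fold in the TRIM11-KD pair and 2.02-fold in the DKD pair. This row joins a small RNA with its host, so its level is uncertain.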
